A study of Mus musculus with 33 samples.

Results

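RNA-seq of mouse embryonic stem cells (ESCs) was examined for 7 genes that work beside the histone H3 lysine 9 (H3K9) methyltransferase SETDB1: *Trim28*, *Atf7ip*, *Mphosph8*, *Pphln1*, *Morc2a*, *Atrx* and *Daxx*. They were chosen by name, without reference to a threshold but with earlier results of these data known, and are 7 of the 55487 genes in the deposited tables. All 7 passed the filter on low counts in every comparison. The data comprise 33 libraries in 11 conditions of 3 libraries each.

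All cells are of the C57BL/6 strain. The controls were wild-type ESCs in set A (WT-A) and set B (WT-B), which carry the same genotype label (WT), and *Setdb1* F/F ESCs, whose *Setdb1* alleles carry loxP sites around internal exons. *Hp1α* Δ/Δ, *Hp1β* Δ/Δ, *Hp1γ* Δ/Δ and *Hp1α/β* Δ/Δ ESCs were set against WT-A, and *Hp1β/γ* Δ/Δ as well as *Hp1α/γ* Δ/Δ ESCs against WT-B, as in the authors' own tables. These mutants are constitutive CRISPR/Cas9 knockouts grown as clonal lines, so that a clone and its genotype cannot be told apart. *Hp1α/β/γ* Δ/Δ cells were obtained by Cre transfection of *Hp1α/β* Δ/Δ cells whose *Hp1γ* alleles carry loxP sites (*Hp1γ* F/F), and were set against WT-A and, beside it, *Hp1α/β* Δ/Δ ESCs. *Setdb1* Δ/Δ cells were obtained by Cre-mediated removal of the exons between the loxP sites, and were set against *Setdb1* F/F ESCs. Per the paper, cells were assayed days after Cre transfection unless stated otherwise, so these losses are recent, unlike those of the constitutive mutants. Whether *Setdb1* F/F ESCs received a control vector is not given, so that Cre delivery may not be told apart from the loss. Below, Hp1-TKO stands for *Hp1α/β/γ* Δ/Δ, and the other mutants are named as null for their gene, such as *Setdb1*-null for *Setdb1* Δ/Δ. The cells were grown on mouse embryonic fibroblast feeders, which were depleted by adhesion before harvest. In these bulk libraries fewer cells of a type and less RNA per cell cannot be told apart.

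SETDB1 writes H3K9 trimethylation and is brought to its targets by partner proteins. TRIM28 (KAP1) bridges KRAB zinc finger proteins and SETDB1 and also binds HP1, and ATF7IP (MCAF1) stabilises SETDB1 in the nucleus. The HUSH complex, formed by TASOR, MPP8 (the product of *Mphosph8*) and periphilin (*Pphln1*), silences retroelements in regions of H3K9 trimethylation together with the ATPase MORC2A. MPP8 reads methylated H3K9 through its chromodomain. ATRX and DAXX together deposit the histone variant H3.3 at heterochromatin, with ATRX as the remodelling ATPase that binds HP1 and DAXX as the H3.3 chaperone.

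Total counts per library ran from 17330936 to 25743149. Levels are given as CPM (counts scaled to the total of a library) after TMM scaling of all 33 libraries together. The targeted genes were checked first. *Cbx5*, *Cbx1* and *Cbx3*, which encode HP1α, HP1β and HP1γ, were each below every library of both wild-type sets in all libraries of the mutants that target them. Their levels did not reach 0, with 149 to 282 CPM as the group means of *Cbx5*, 46.2 to 104 CPM of *Cbx1* and 64.6 to 88.0 CPM of *Cbx3*. *Setdb1* had 71.9, 69.2 and 68.4 CPM in the libraries of *Setdb1*-null cells, against 135, 131 and 129.9 CPM in those of *Setdb1* F/F ESCs. Replicate 2 of *Hp1α/γ*-null ESCs stood apart from the other libraries of its group. The chi-square per degree of freedom between it and the other libraries of its group was 114 and 122, where the other pairs of replicates in the study had 1.89 to 11.3. Results of *Hp1α/γ*-null ESCs are therefore given with and without it. This group also differed from WT-B in its markers. Its summed feeder markers were at 18.9 to 27.2 CPM against 79.5 to 90.7 CPM, with all 8 tested called lower, and its ESC markers at 6191 to 8717 CPM against 3673 to 3734 CPM, with 8 of 10 called higher. The summed level of 10 ESC markers was 3730 to 3779 CPM in WT-A and 1560 to 1606 CPM in Hp1-TKO cells, 7890 to 7925 CPM in *Setdb1* F/F ESCs and 5258 to 5299 CPM in *Setdb1*-null cells. All 10 had counts in every group. The summed level of 12 feeder fibroblast markers was 67.2 to 70.2 CPM, 50.05 to 52.5 CPM, 10.7 to 11.9 CPM and 5.62 to 6.45 CPM in these groups, and that of 8 primitive endoderm markers 475 to 480.2 CPM, 263 to 272 CPM, 374 to 376 CPM and 224 to 229 CPM. A sum follows its most abundant genes. Of the endoderm markers, 4 were called higher and 3 lower in Hp1-TKO cells (median log2 fold change 1.72 over the 7 tested), and 2 higher and 6 lower in *Setdb1*-null cells (−0.79 over 8). Other mutants differed in feeder markers too. *Hp1α/β*-null ESCs had a sum of 94.9 to 107.7 CPM, with 6 of 9 tested called higher and 2 lower against WT-A. *Hp1β/γ*-null ESCs had 141.7 to 150.1 CPM, with 1 of 9 called higher and 3 lower against WT-B. In Hp1-TKO cells against *Hp1α/β*-null ESCs, 7 of 8 were called lower and 1 higher (median log2 fold change −2.02). The part of these marker levels in the results below was not tested.

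The sequence upstream of the transcription start is shown for *Atf7ip*, *Mphosph8* and *Atrx*, the genes that passed 2-fold after the loss of SETDB1 or of HP1, and for *Trim28*, the most abundant of the 7. The windows were taken from RefSeq (GRCm38.p6) as 250 bases before to 50 bases after each start. All 7 genes matched, with 11 windows among 32851, and only the stretch free of annotated exons is printed. The stretch of *Atf7ip* is chr6:136518601-136518801 (plus strand), that of *Mphosph8* chr14:56668125-56668247 (plus strand), that of *Trim28* chr7:13023902-13024151 (plus strand) and that of *Atrx* chrX:105929404-105929622 (minus strand). Each is written 5′ to 3′ along the gene, and capitals mark the matches to GGGCGG (a GC box) and, in *Trim28*, to GCGGGAA (an E2F6 motif), on either strand, so that CCGCCC in capitals is the GC box of the other strand.
Atf7ip: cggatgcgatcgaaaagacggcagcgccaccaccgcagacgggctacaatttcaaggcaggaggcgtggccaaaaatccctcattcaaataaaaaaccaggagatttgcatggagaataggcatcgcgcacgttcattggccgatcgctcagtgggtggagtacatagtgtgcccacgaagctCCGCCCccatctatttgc
Mphosph8: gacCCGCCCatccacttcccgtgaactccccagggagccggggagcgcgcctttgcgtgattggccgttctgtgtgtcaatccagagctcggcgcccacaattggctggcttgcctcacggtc
Trim28: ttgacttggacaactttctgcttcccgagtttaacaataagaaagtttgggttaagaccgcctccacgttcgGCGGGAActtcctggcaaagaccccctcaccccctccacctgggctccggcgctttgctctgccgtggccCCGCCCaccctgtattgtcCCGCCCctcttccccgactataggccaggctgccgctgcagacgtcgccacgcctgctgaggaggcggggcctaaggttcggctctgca
Atrx: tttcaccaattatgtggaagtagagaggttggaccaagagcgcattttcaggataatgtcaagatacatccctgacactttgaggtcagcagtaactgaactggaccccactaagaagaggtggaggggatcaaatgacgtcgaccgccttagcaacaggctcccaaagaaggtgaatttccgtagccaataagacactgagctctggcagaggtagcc
GGGCGG was found in windows of 5 of the 7 genes (*Atf7ip*, *Daxx*, *Morc2a*, *Mphosph8* and *Trim28*) and in 35.7% of all windows. GCGGGAA was found in *Trim28* and in 4.6% of all windows, and CCGGAAGT, an ETS motif, in *Daxx* and *Pphln1* and in 3.89% of all windows. Neither CACGTG (an E-box, 7.15% of all windows) nor TGACGTCA (a cAMP response element, 1.79%) was found in a window of the 7 genes. Both strands were searched for each motif. GGGCGG and GCGGGAA can share bases, and matches that did were counted for both. These matches are a description of the letters in the windows. CpG dinucleotides numbered 11 in the window of *Atrx* and 23 in that of *Trim28*, 28 in that of *Mphosph8* and 29 in that of *Atf7ip*, where the median over all windows was 7.

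The level of each gene across the 11 conditions is described before the comparisons. Per transcript length, in the TPM (transcripts scaled by length and by the total of a library) that the authors deposited, *Trim28* was by far the most abundant of the 7, with 782 to 1952 TPM over the 33 libraries. *Atrx* followed with 33.8 to 221 TPM. The median over libraries was 1108 TPM for *Trim28*, 140.6 TPM for *Atrx*, 56.5 TPM for *Daxx*, 54.2 TPM for *Morc2a*, 51.0 TPM for *Mphosph8*, 32.5 TPM for *Pphln1* and 28.9 TPM for *Atf7ip*. The TPM of *Atf7ip* is uncertain. In WT-A its libraries had 115, 111 and 109.8 CPM but 47.9, 23.4 and 21.9 TPM. The length that links its counts to its TPM varied 3.5-fold between the highest and the lowest library, more than for 97.7% of 8954 well-counted genes (100 counts or more in each library), against a median of 1.32-fold. For the other 6 genes this spread was 1.21-fold to 1.65-fold. Changes between conditions are therefore given on the scale of counts, which are not divided by this length. A shift in the length of the transcripts could still alter counts, which was not tested.

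**Figure D1:**
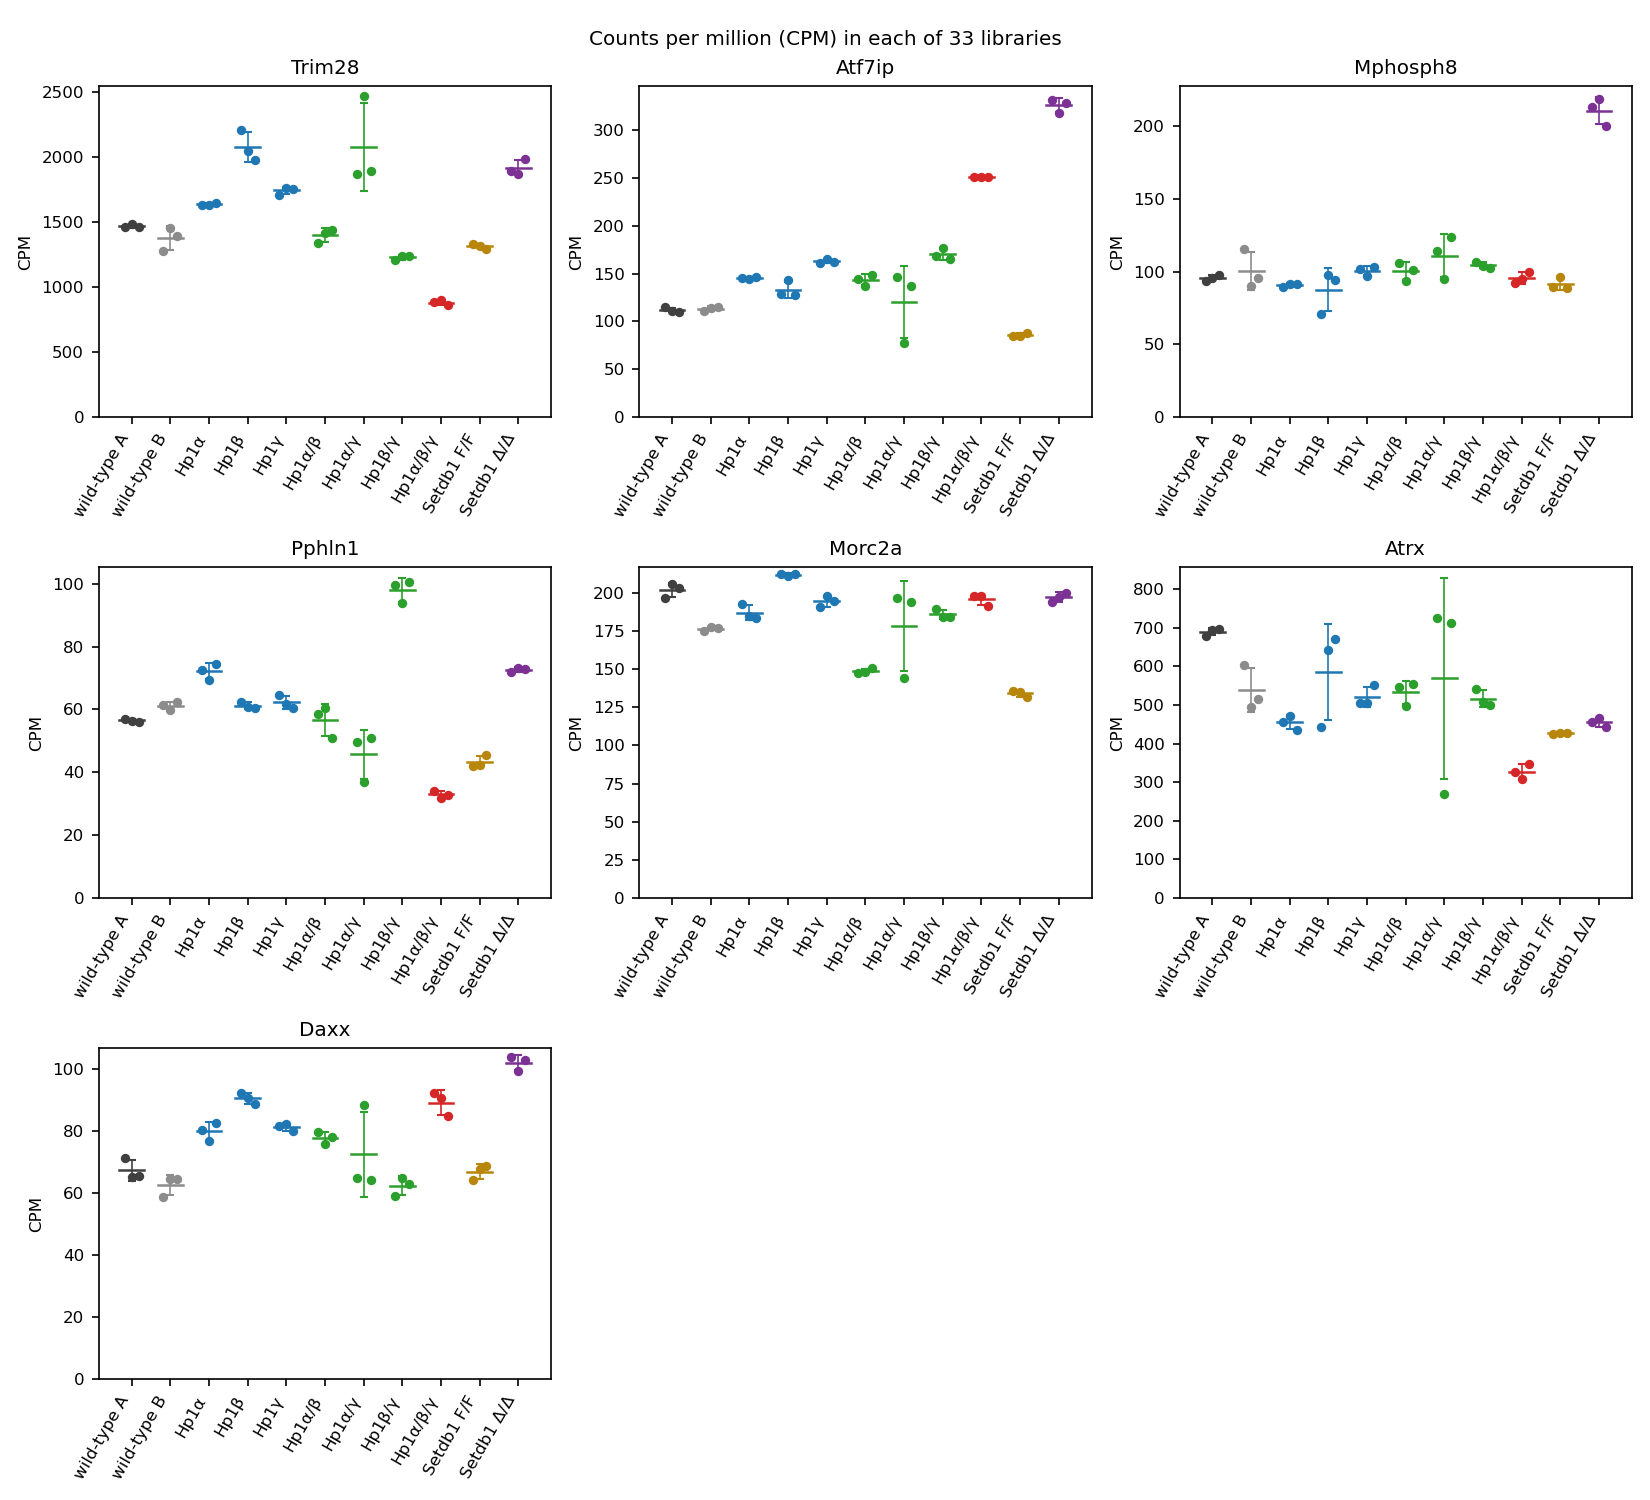
CPM of the 7 genes (y axes, from 0) in each of the 33 libraries, by condition (x axes). Points are libraries, horizontal bars the mean of 3 libraries and error bars their SD. Atf7ip and Mphosph8 are highest in Setdb1-null cells, Trim28, Pphln1 and Atrx are lowest in Hp1-TKO cells, and replicate 2 of Hp1α/γ-null ESCs lies away from its group in Atf7ip, Trim28, Pphln1, Morc2a, Atrx and Daxx.

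When SETDB1 was removed, all 7 genes rose. *Atf7ip* rose 3.79-fold and *Mphosph8* 2.29-fold, the HUSH subunit gene *Pphln1*, its partner *Morc2a*, *Trim28* and *Daxx* rose 1.45-fold to 1.67-fold, and *Atrx* rose 1.06-fold. When all 3 HP1 proteins were removed, the same genes did not move together. *Atf7ip* and *Daxx* rose, *Trim28*, *Pphln1* and *Atrx* fell, and *Mphosph8* did not pass the test. *Morc2a* was called lower against WT-A, at −0.07, and higher against WT-B, at 0.13, so that no direction is given for it. Of all genes tested, 78.9% were called in *Setdb1*-null cells in either direction and 40.2% higher, and 81.6% were called in either direction in Hp1-TKO cells, so that 7 of 7 called higher lies above the background of the former and 6 of 7 called lies near that of the latter. Since the 7 genes were chosen with earlier results of these data known, these counts describe them and are no independent test. The calls are made at a Benjamini-Hochberg adjusted p under 0.05 in edgeR's quasi-likelihood test, adjusted over all genes tested. The 3 libraries of a group are described as biological replicates. In the paper the control vector went into *Hp1α/β* Δ/Δ cells with *Hp1γ* F/F alleles. WT-A and WT-B do not have that genotype, with 484 and 452.5 CPM of *Cbx5* on average against 202.6 CPM in *Hp1α/β*-null ESCs. The labels do not name a group that received the vector. Cre transfections for Hp1-TKO cells, and those with a control vector beside them, were independent experiments. For the other groups nothing says whether cultures were separate, so that their p-values measure the spread between these libraries, which may be technical.

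Of the partners that bind SETDB1 directly, *Atf7ip* (chromosome 6, 136506167 to 136610862 of GRCm38, plus strand) had the larger response. It had 84.5, 84.4 and 88.1 CPM in the libraries of *Setdb1* F/F ESCs and 332, 318 and 328 CPM in those of *Setdb1*-null cells. The 3 libraries without SETDB1 all lay above every library with it. The log2 fold change was 1.92 (standard error 0.029, edgeR's quasi-likelihood test, Benjamini-Hochberg adjusted p = 2.01e-19). In WT-A it had 115, 111 and 109.8 CPM, in *Hp1α/β*-null ESCs 144, 137 and 149 CPM and in Hp1-TKO cells 251, 251 and 251 CPM. These groups did not overlap, and the libraries without HP1 were the highest of all HP1 mutants. The log2 fold change of Hp1-TKO cells was 1.14 (standard error 0.0291, edgeR's quasi-likelihood test, Benjamini-Hochberg adjusted p = 1.68e-17) against WT-A and 0.77 (standard error 0.0372) against *Hp1α/β*-null ESCs. *Atf7ip* was also higher in each mutant of 1 paralog, at 146 CPM on average in *Hp1α*-null, 133 CPM in *Hp1β*-null and 163 CPM in *Hp1γ*-null ESCs, against 112 ± 2.52 CPM (SD, n = 3) in WT-A. In *Hp1β/γ*-null ESCs it had 168, 176 and 166 CPM against 111, 114 and 115 CPM in WT-B, a log2 fold change of 0.58 (standard error 0.0469). In *Hp1α/γ*-null ESCs it had 147, 76.99 and 138 CPM, with replicate 2 below and the others above all libraries of WT-B, and the log2 fold change was 0.06 (standard error 0.247) with and 0.32 without that replicate. The latter had an adjusted p of 0.000171 in edgeR's quasi-likelihood test. Genes on chromosome 6 had a median log2 fold change of 0.38 in Hp1-TKO cells against 0.02 for genes on other chromosomes, and *Atf7ip* lay above 68.2% of the genes of its chromosome. In *Setdb1*-null cells the median of chromosome 6 was 0.07 and *Atf7ip* lay above 88.6% of its genes. The part of the chromosome in the rise of *Atf7ip* was not tested.

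*Trim28* (chromosome 7, 12999114 to 13031035, plus strand), which encodes the corepressor TRIM28, moved in opposite directions under the 2 losses. In *Setdb1* F/F ESCs it had 1329, 1315 and 1295 CPM and in *Setdb1*-null cells 1894, 1872 and 1985 CPM. The libraries without SETDB1 lay above all those with it, at a log2 fold change of 0.54 (standard error 0.0207, edgeR's quasi-likelihood test, Benjamini-Hochberg adjusted p = 1.05e-13). In WT-A it had 1462, 1480 and 1459 CPM and in Hp1-TKO cells 883, 895 and 858 CPM, the lowest of all 33 libraries. The log2 fold change was −0.77 (standard error 0.02, edgeR's quasi-likelihood test, Benjamini-Hochberg adjusted p = 2.36e-17). Loss of 1 paralog went with higher levels, at 1635, 2075 and 1742 CPM on average in *Hp1α*-null, *Hp1β*-null and *Hp1γ*-null ESCs, all libraries of which lay above those of WT-A. In *Hp1α/β*-null ESCs it had 1341, 1418 and 1438 CPM, a log2 fold change of −0.08 (standard error 0.0256) against WT-A and of 0.02 against WT-B, so that no direction is given for this mutant. *Hp1β/γ*-null ESCs had 1207, 1240 and 1239 CPM, below the 1278, 1456 and 1393 CPM of WT-B in every library, with a log2 fold change of −0.16 (standard error 0.0436). *Hp1α/γ*-null ESCs had 1870, 2465 and 1894 CPM, above WT-B in every library, with a log2 fold change of 0.55 (standard error 0.128) and of 0.45 without replicate 2. That call was lost when replicate 1 or 3 of WT-B was left out, with log2 fold changes of 0.50 and 0.56 and adjusted p of 0.0530 and 0.0507 in edgeR's quasi-likelihood test. The part of the marker shift of these ESCs in their values of *Trim28* and the other genes was not tested.

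Of the HUSH genes, *Mphosph8* (chromosome 14, 56668248 to 56697430, plus strand) was called only in *Setdb1*-null cells among the 10 comparisons, apart from the alternatives named below. *Setdb1* F/F ESCs had 89.5, 96.3 and 88.9 CPM and *Setdb1*-null cells 214, 219 and 201 CPM. Every library without SETDB1 lay above the other 30 libraries of the study. The log2 fold change was 1.19 (standard error 0.0385, edgeR's quasi-likelihood test, Benjamini-Hochberg adjusted p = 8.15e-15). WT-A had 93.3, 95.4 and 98.0 CPM and Hp1-TKO cells 92.2, 94.8 and 99.8 CPM, which overlap. The log2 fold change was −0.03 (standard error 0.042), with a 95% interval of −0.11 to 0.06, and it did not pass the test. In TPM, *Mphosph8* had 46.1, 49.6 and 51.2 in WT-A and 56.65, 57.3 and 64.75 in Hp1-TKO cells, without overlap. The latter did overlap with WT-B, at 47.4 to 62.0 TPM. In the other HP1 mutants *Mphosph8* was not called either, with log2 fold changes from −0.14 in *Hp1β*-null to 0.11 in *Hp1α/γ*-null ESCs. Without replicate 2 the latter became 0.24 and was called (adjusted p = 0.0235, edgeR's quasi-likelihood test), and with WT-A as the control *Hp1β/γ*-null ESCs were called at 0.13. Among the further alternatives it was called in these ESCs without replicate 1 of WT-B, at 0.16, and in Hp1-TKO cells against *Hp1α/β*-null ESCs without replicate 2 of the latter, at −0.17, or without replicate 3 of the former or with all genes of at least 1 count, at −0.14 each, where the values with all libraries were 0.06 and −0.10. *Mphosph8* shares 10.7% of its exon bases with the antisense gene *Gm16973*, which had 3.42 to 5.38 CPM in WT-A and 80.4 to 86.0 CPM in Hp1-TKO cells. Strand use in the counting is not given in the sources used here, so the part of *Gm16973* in the counts of *Mphosph8* was not tested. In *Setdb1* F/F ESCs and *Setdb1*-null cells *Gm16973* had 5.48 to 8.91 CPM. The median log2 fold change of chromosome 14 was 0.32 in *Setdb1*-null cells against 0.01 for other chromosomes, and *Mphosph8* lay above 74.7% of its genes.

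*Pphln1* (chromosome 15, 93398350 to 93491510, plus strand) encodes periphilin, the HUSH subunit that binds RNA. Of the 7, it had the largest difference between the responses to the 2 losses. *Setdb1* F/F ESCs had 42.1, 42.2 and 45.4 CPM and *Setdb1*-null cells 71.8, 73.2 and 72.9 CPM, without overlap, at a log2 fold change of 0.74 (standard error 0.0413, edgeR's quasi-likelihood test, Benjamini-Hochberg adjusted p = 2.01e-11). WT-A had 56.9, 56.5 and 56.1 CPM and Hp1-TKO cells 34.0, 31.9 and 32.9 CPM, the lowest libraries of the study in CPM, at a log2 fold change of −0.80 (standard error 0.0526, edgeR's quasi-likelihood test, Benjamini-Hochberg adjusted p = 3.89e-11). Against the 58.4, 60.4 and 50.8 CPM of *Hp1α/β*-null ESCs, the log2 fold change was −0.81 (standard error 0.067). In TPM, Hp1-TKO cells had 21.65 to 24.93, below WT-A (31.61 to 33.53) but above *Setdb1* F/F ESCs (18.88 to 20.36) and replicate 2 of *Hp1α/γ*-null ESCs (8.29). The mutants of a pair of paralogs lay on either side of the wild types. *Hp1β/γ*-null ESCs had 99.8, 93.8 and 101 CPM, the highest of all conditions, against 61.3, 59.8 and 62.5 CPM in WT-B, a log2 fold change of 0.68 (standard error 0.0492). *Hp1α/γ*-null ESCs had 49.8, 36.8 and 50.8 CPM, all below WT-B, with a log2 fold change of −0.45 (standard error 0.16) that did not pass the test and of −0.28 that did without replicate 2. *Hp1α/β*-null ESCs overlapped with WT-A, at −0.01 (standard error 0.0583). Of the mutants of 1 paralog, *Hp1α*-null ESCs had 72.6, 69.4 and 74.6 CPM, at 0.36 (standard error 0.0444), *Hp1β*-null ESCs 62.5, 60.8 and 60.5 CPM, at 0.10 (standard error 0.0467), and *Hp1γ*-null ESCs 64.6, 61.6 and 60.6 CPM, at 0.14 (standard error 0.0438). All these libraries lay above WT-A. *Hp1β*-null ESCs did not pass the test, and the call of *Hp1γ*-null ESCs was lost against WT-B, at 0.04.

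*Morc2a* (chromosome 11, 3649191 to 3690477, plus strand), whose product is the ATPase that HUSH recruits, varied least of the 7 across conditions, with a 1.58-fold range of group means. *Setdb1* F/F ESCs had 136, 135 and 132 CPM, the lowest group, and *Setdb1*-null cells 194, 198 and 200.2 CPM, a log2 fold change of 0.55 (standard error 0.0271, edgeR's quasi-likelihood test, Benjamini-Hochberg adjusted p = 3.94e-12). The libraries without SETDB1 lay above those with it and overlapped with WT-A, which had 197, 206 and 203 CPM. *Hp1α/β*-null ESCs had 148, 148 and 151 CPM, below all libraries of both wild-type sets, at −0.45 (standard error 0.0376) against WT-A and −0.26 against WT-B. Hp1-TKO cells, with 198, 198 and 192 CPM, were again higher than *Hp1α/β*-null ESCs, at 0.36 (standard error 0.0348). Their difference from WT-A was −0.07 (standard error 0.0298) and from WT-B 0.13, so that its direction depends on the control. The call against WT-A was also lost with RLE size factors, at −0.04, in DESeq2 and in the joint fit, at −0.06 and −0.07, and without replicate 3 of Hp1-TKO cells, at −0.06. In TPM, Hp1-TKO cells had 85.0, 82.8 and 74.5, above the 56.4, 62.5 and 61.7 of WT-A. On the scale of counts, the direction also depended on the control for *Hp1α*-null (−0.10 and 0.10), *Hp1γ*-null (−0.05 and 0.16) and *Hp1β/γ*-null ESCs (−0.12 and 0.07), each given against WT-A and then against WT-B. *Morc2a* shares 7.52% of its exon bases with the antisense RNA *Tug1*, which had a log2 fold change of 0.45 in Hp1-TKO cells and −0.02 in *Setdb1*-null cells, and reads could be shared with the closely related gene *Morc2b*.

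*Atrx* (chromosome X, 105797615 to 105929403, minus strand) was the gene of the 7 that fell furthest in Hp1-TKO cells against WT-A and moved least without SETDB1. Against WT-B and against *Hp1α/β*-null ESCs, *Pphln1* fell further, at −0.91 and −0.81. WT-A had 679, 696 and 697 CPM, the highest group, and Hp1-TKO cells 326, 307 and 347 CPM, the lowest. The log2 fold change was −1.11 (standard error 0.0333, edgeR's quasi-likelihood test, Benjamini-Hochberg adjusted p = 2.12e-16). WT-B had 604, 496 and 516 CPM, below all libraries of WT-A although the genotype label is the same, at −0.35 (standard error 0.0564, edgeR's quasi-likelihood test, Benjamini-Hochberg adjusted p = 0.00023). Against WT-B the log2 fold change of Hp1-TKO cells was −0.74, and against the 546, 499 and 555 CPM of *Hp1α/β*-null ESCs it was −0.74 (standard error 0.0465). The fall was thus called against all 3 of these groups, but passed 2-fold only against WT-A. In TPM, Hp1-TKO cells had 138.3, 121.6 and 134.9, below WT-A (190.6 to 220.9) and *Hp1α/β*-null ESCs (140.7 to 158.6). On that scale they overlapped with WT-B (127.8 to 156.6) and lay above *Setdb1* F/F ESCs (109.2 to 114.9). *Hp1α*-null ESCs had 457, 472 and 436 CPM and fell by the test against either set, at −0.59 (standard error 0.0256) against WT-A and −0.23 against WT-B. *Hp1γ*-null and *Hp1α/β*-null ESCs were called lower against WT-A, at −0.41 and −0.38, and not against WT-B, at −0.03 and −0.02. *Hp1β*-null ESCs had 443, 643 and 669.9 CPM, with replicate 1 far below the others, at −0.25 (standard error 0.119), which did not pass the test, and −0.08 without replicate 1, which did (adjusted p = 0.00714, edgeR's quasi-likelihood test). Without replicate 3 it was called at −0.36. In *Hp1α/γ*-null ESCs it had 726, 269 and 713 CPM, and without replicate 2 the log2 fold change against WT-B moved from 0.06 to 0.42, a rise that was called. *Setdb1* F/F ESCs had 425, 427 and 427 CPM and *Setdb1*-null cells 456, 467 and 443 CPM, at 0.09 (standard error 0.0225, edgeR's quasi-likelihood test, Benjamini-Hochberg adjusted p = 0.00225). The groups did not overlap, yet both lay below WT-A and the difference was small. The median log2 fold change of the X chromosome in Hp1-TKO cells was −0.10, against 0.04 for the other chromosomes.

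*Daxx* (chromosome 17, 33909414 to 33915590, plus strand), the partner of *Atrx*, was higher after either loss. *Setdb1* F/F ESCs had 64.0, 67.5 and 68.7 CPM and *Setdb1*-null cells 104, 99.2 and 103 CPM, the highest group, at 0.60 (standard error 0.0373, edgeR's quasi-likelihood test, Benjamini-Hochberg adjusted p = 8.69e-11). WT-A had 71.1, 65.2 and 65.4 CPM and Hp1-TKO cells 92.0, 90.6 and 84.6 CPM, without overlap, at 0.38 (standard error 0.0477, edgeR's quasi-likelihood test, Benjamini-Hochberg adjusted p = 6.13e-07). *Hp1α*-null, *Hp1β*-null, *Hp1γ*-null and *Hp1α/β*-null ESCs were called higher than WT-A as well, at 0.25, 0.41, 0.27 and 0.20. All their libraries lay above those of WT-A, and all 4 calls held against WT-B. *Hp1β/γ*-null ESCs had 59.1, 64.9 and 62.9 CPM against 58.7, 64.3 and 64.6 CPM in WT-B, at −0.01 with a 95% interval of −0.11 to 0.10, which did not pass the test. *Hp1α/γ*-null ESCs had 64.8, 88.2 and 64.1 CPM and were not called with replicate 2 or without it, at 0.17 and 0.04.

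**Figure D2:**
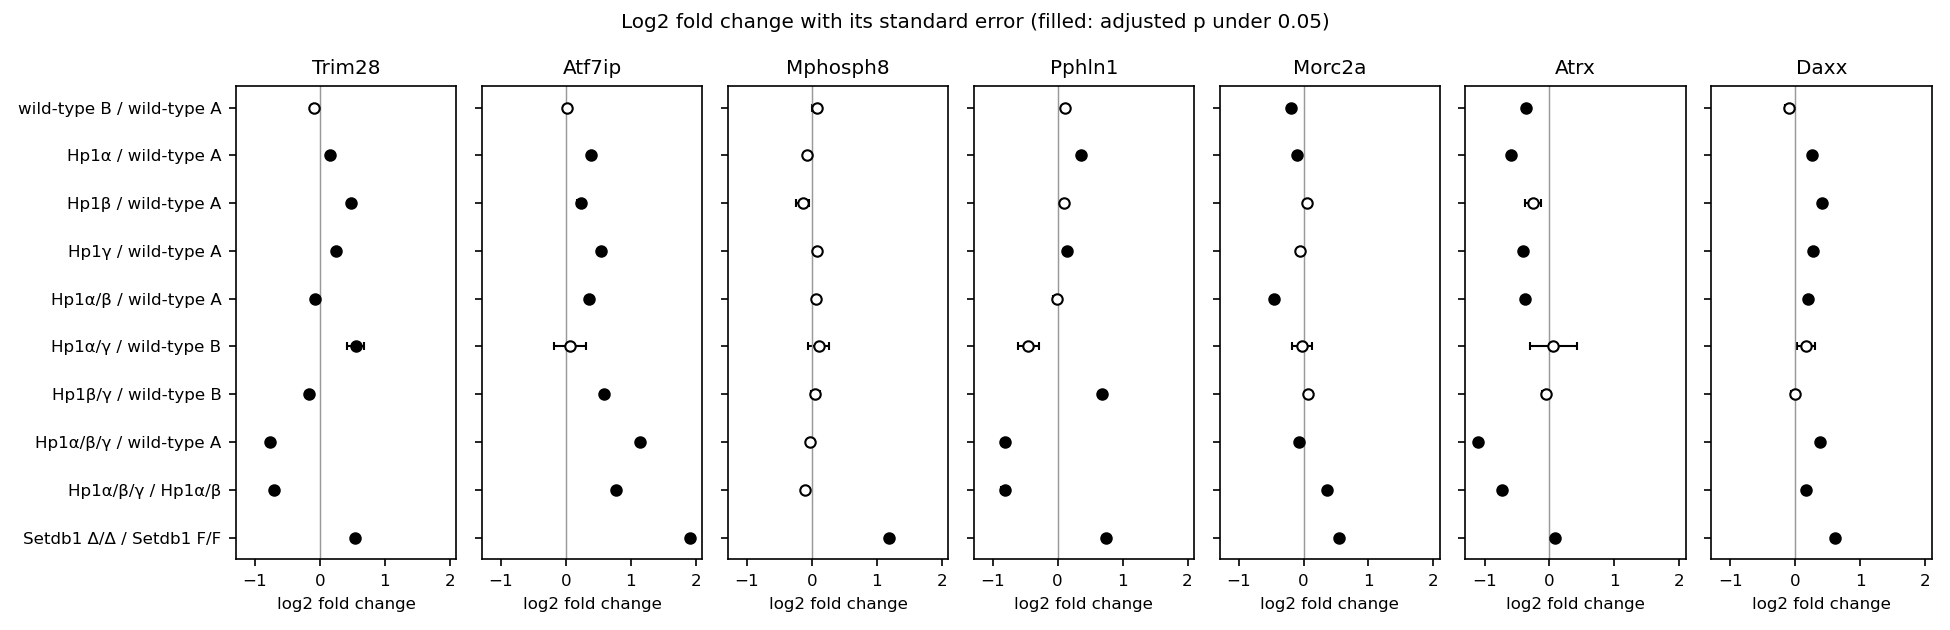
Log2 fold changes (x axes) of the 7 genes (panels) in 10 comparisons (y axis). Error bars are the standard error from edgeR, filled points passed an adjusted p under 0.05 and open points did not. All 7 points of Setdb1-null cells (bottom) lie above 0, while those of Hp1-TKO cells against WT-A run from −1.11 (Atrx) to 1.14 (Atf7ip).

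Counted over the 7 genes, each comparison is given beside its own background. In *Setdb1*-null cells 7 of 7 were called higher, and 2 of 7 (*Atf7ip* and *Mphosph8*) also passed 2-fold, which 18.5% of all genes tested did in that direction. The median log2 fold change of the 7 was 0.60, and that of all genes tested 0.01. In Hp1-TKO cells against WT-A, 2 were called higher and 4 lower, where 41.7% and 39.9% of all genes were, and 2 of 7 passed 2-fold (*Atf7ip* higher, *Atrx* lower), where 42.3% of all genes did. The median absolute log2 fold change of the 7 was 0.77, and that of all genes tested was 0.83. The size of these changes is thus ordinary for this comparison, in which most genes were called. Against *Hp1α/β*-null ESCs 6 of 7 were called, where 80.6% of all genes were, with 3 higher and 3 lower, where 41.3% and 39.3% were, and none of the 7 passed 2-fold by edgeR's quasi-likelihood test, where 41.4% of all genes did. WT-A is the control of 5 of the mutants and WT-B of 2, so that these are not independent of each other.

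In the mutants of 1 paralog, 6 of 7 genes were called in *Hp1α*-null ESCs (background 45.0%), 3 of 7 in *Hp1β*-null ESCs (51.1%) and 5 of 7 in *Hp1γ*-null ESCs (46.7%). *Trim28*, *Atf7ip* and *Daxx* were called higher in all 3, and *Atrx* lower in *Hp1α*-null and *Hp1γ*-null ESCs. In the mutants of a pair, 5 of 7 were called in *Hp1α/β*-null ESCs (background 43.4%), 3 of 7 in *Hp1β/γ*-null ESCs (51.7%) and 1 of 7 in *Hp1α/γ*-null ESCs (46.5%), where the count was 6 without replicate 2. In that alternative 67.1% of all genes were called. The share was above the background in *Hp1α*-null, *Hp1γ*-null and *Hp1α/β*-null ESCs, near it in *Hp1β*-null and *Hp1β/γ*-null ESCs and below it in *Hp1α/γ*-null ESCs. This depended on libraries and control. *Hp1α/γ*-null ESCs lie above it without replicate 2, and *Hp1α/β*-null ESCs near it against WT-B, with 3 of 7 where 45.7% of all genes were called. *Hp1β/γ*-null ESCs against WT-A had 6 of 7 called, where 62.0% of all genes were. In *Hp1γ*-null ESCs against WT-B, *Atrx* and *Pphln1* lost their calls and *Morc2a* gained one, where 53.0% of all genes were called. No gene of the 7 passed 2-fold in any of these 6 mutants in edgeR's quasi-likelihood test, while 4.87%, 9.1%, 5.59%, 8.15%, 11.9% and 23.1% of all genes did, in the order given above. WT-A and WT-B differed in 2 of the 7, *Morc2a* and *Atrx*, both lower in WT-B, where 24.8% of all genes differed. *Daxx*, *Trim28* and *Atf7ip* did not pass the test between the wild-type sets, with log2 fold changes of −0.10, −0.09 and 0.03. *Trim28* did pass it without replicate 2 of WT-B, at −0.13, and with all genes of at least 1 count, at −0.09.

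The response to the loss of HP1 was set against that to the loss of SETDB1 in a fit of 12 libraries, each effect relative to its own control. The effect was lower in Hp1-TKO than in *Setdb1*-null cells for all 7 genes, which held for 33.6% of all genes by the test, while 64.9% differed in either direction. The difference was −1.57 for *Pphln1*, −1.33 for *Trim28*, −1.25 for *Mphosph8*, −1.22 for *Atrx*, −0.81 for *Atf7ip*, −0.64 for *Morc2a* and −0.25 for *Daxx* on the log2 scale. Of these, 4 passed 2-fold, where 16.5% of all genes did in that direction. *Pphln1*, *Trim28*, *Atrx* and *Morc2a* were called lower after the one loss and higher after the other, though the rise of *Atrx* and the call of *Morc2a* in Hp1-TKO cells were small and the latter depended on the control. For *Atf7ip* and *Daxx* the direction was the same and the rise was smaller without HP1. The control lines themselves differed in level. *Setdb1* F/F ESCs had 85.7 ± 2.06 CPM of *Atf7ip* (SD, n = 3) and 134 ± 2.18 CPM of *Morc2a*, below the 112 ± 2.52 and 202 ± 4.81 CPM of WT-A.

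**Figure D3:**
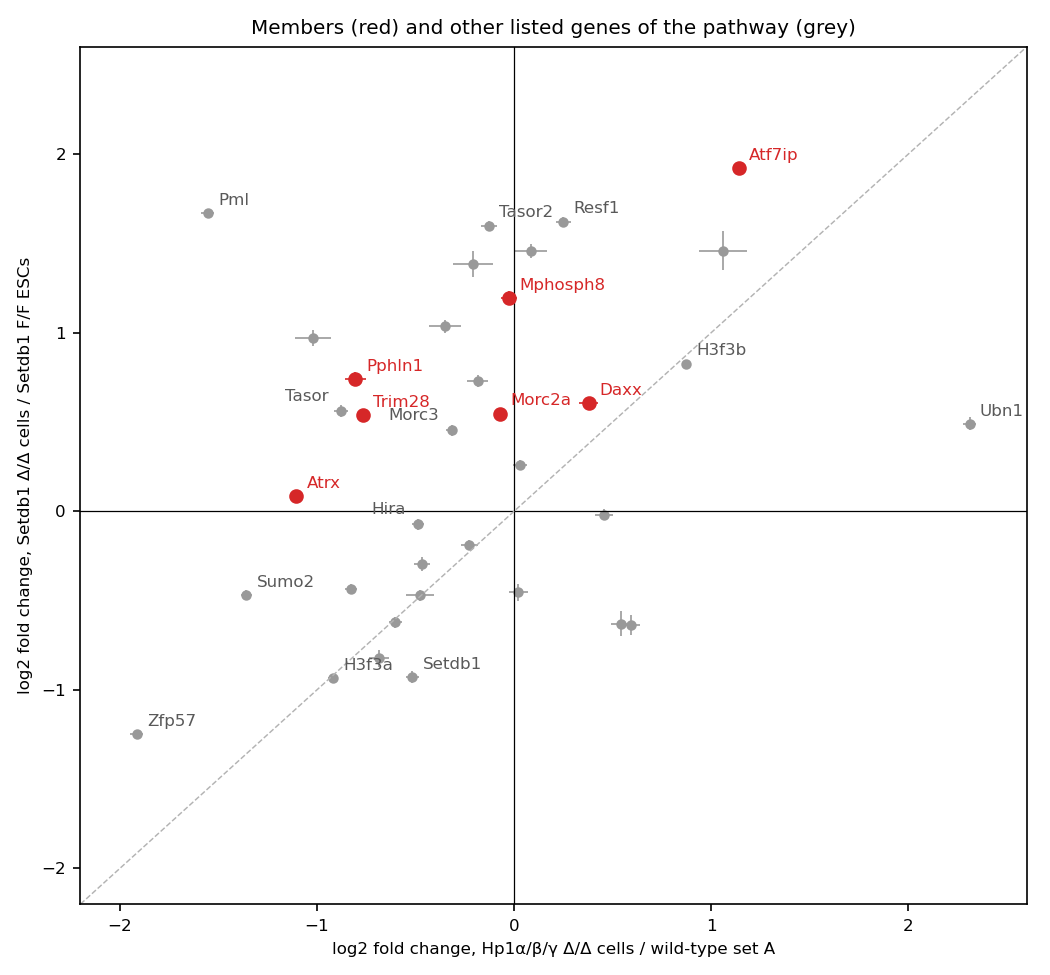
Log2 fold change in Hp1-TKO cells against WT-A (x axis) and in Setdb1-null cells against Setdb1 F/F ESCs (y axis) for the 7 genes (red) and the 29 other listed genes tested in both (grey), with standard errors. The dashed line marks equal effects, and all 7 red points lie above it.

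Within a library, the balance of partner genes is free of differences in scaling, though not in the lengths used for TPM. The ratio of *Atrx* to *Daxx* per transcript length was 3.61, 4.16 and 4.60 in WT-A and 3.98, 3.06 and 2.95 in WT-B, 1.51, 1.41 and 1.48 in Hp1-TKO cells, 2.53, 2.44 and 2.38 in *Setdb1* F/F ESCs and 1.46, 1.43 and 1.42 in *Setdb1*-null cells. The libraries of either loss thus had the least *Atrx* for each *Daxx* transcript, apart from replicate 2 of *Hp1α/γ*-null ESCs at 0.772. Within HUSH, the ratio of *Mphosph8* to *Tasor* was 1.40 to 1.54 in WT-A and 2.64 to 3.04 in Hp1-TKO cells, 1.43 to 1.59 in *Setdb1* F/F ESCs and 2.23 to 2.34 in *Setdb1*-null cells. In the former comparison *Tasor* fell and *Mphosph8* was not called, and in the latter both rose. *Hp1α/β*-null ESCs also had a ratio above WT-A, at 2.15, 2.18 and 2.20. The ratio of *Pphln1* to *Mphosph8* was 0.638 to 0.685 in WT-A, 0.334 to 0.435 in Hp1-TKO cells, 0.875 to 0.908 in *Hp1β/γ*-null ESCs, 0.398 to 0.450 in *Setdb1* F/F ESCs and 0.294 to 0.345 in *Setdb1*-null cells. It was as low in *Hp1α/γ*-null ESCs as in Hp1-TKO cells, at 0.402, 0.285 and 0.363. For *Atf7ip*, whose TPM is uncertain, counts were set against those of *Setdb1*. The ratio was 0.581, 0.532 and 0.562 in WT-A, 1.79, 1.73 and 1.75 in Hp1-TKO cells, 0.626, 0.643 and 0.678 in *Setdb1* F/F ESCs and 4.62, 4.60 and 4.80 in *Setdb1*-null cells. Both genes enter this ratio, since *Setdb1* fell by 0.52 in Hp1-TKO cells and by 0.93 in *Setdb1*-null cells, where part of the gene is deleted.

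**Figure D4:**
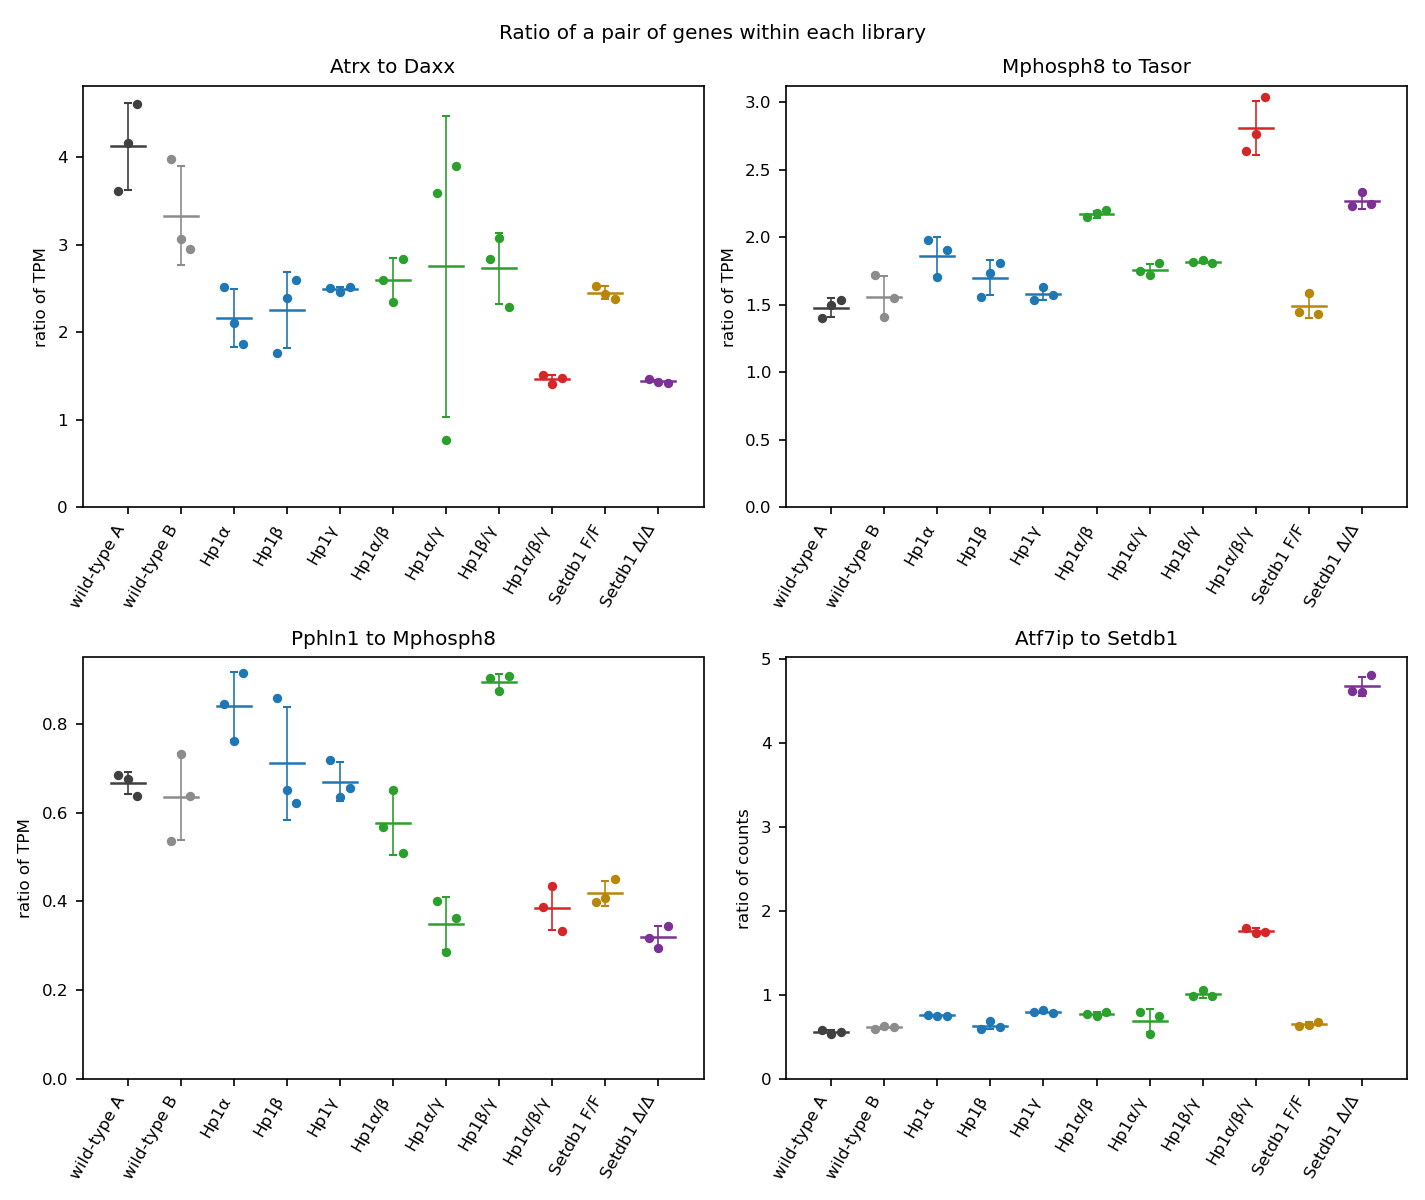
Ratio of a pair of genes within each library (y axes, from 0), in TPM for 3 pairs and in counts for Atf7ip to Setdb1, by condition (x axes). Points are libraries, horizontal bars means of 3 and error bars SD. Atrx to Daxx is near 1.4 to 1.5 in both Hp1-TKO and Setdb1-null cells, and Atf7ip to Setdb1 is highest in Setdb1-null cells.

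Of 31 other genes of these pathways, listed by name, 30 were tested in Hp1-TKO cells against WT-A, with 8 called higher and 18 lower, where 41.7% and 39.9% of all genes were. In *Setdb1*-null cells 29 were tested, with 14 called in each direction, where 40.2% and 38.8% of all genes were, and *Setdb1* itself is among the 14 lower. The median log2 fold change was −0.27 in the former and −0.02 in the latter, where all genes had 0.04 and 0.01. The third HUSH subunit gene *Tasor* moved in the same directions as *Pphln1* and *Trim28*, at −0.88 (standard error 0.0343) in Hp1-TKO and 0.56 (standard error 0.0348) in *Setdb1*-null cells. Its paralog *Tasor2* had −0.13 and 1.60. Of the SETDB1 partners, *Resf1* had 0.25 and 1.62 in the same order, the KRAB zinc finger genes *Zfp809* 0.09 and 1.46, and *Zfp57*, which guards imprints, −1.91 and −1.25. The value of *Zfp809* in Hp1-TKO cells did not pass the test, and *Atf7ip2*, the paralog of *Atf7ip*, had −1.02 and 0.97.

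Of the H3.3 genes, *H3f3a* fell by 0.92 and 0.93 and *H3f3b* rose by 0.87 and 0.83 in Hp1-TKO and *Setdb1*-null cells, with the difference of the effects not called in either gene. Reads of this pair and its copies may be split in the counting. The chaperone gene *Hira* had −0.49 and −0.07, both called, and its partner *Ubn1* rose by 2.31 and 0.49. The histone chaperone gene *Asf1b* had −0.35 and 1.04. *Pml*, whose nuclear bodies hold DAXX and ATRX, had 297, 294 and 292 CPM in WT-A and 108, 102 and 97.0 CPM in Hp1-TKO cells, and 128, 131 and 131 CPM in *Setdb1* F/F ESCs and 413, 414 and 419 CPM in *Setdb1*-null cells. It fell by 1.55 in the former and rose by 1.67 in the latter. Of the SUMO genes, *Sumo2* had −1.36 and −0.47, and the SUMO protease gene *Senp7* −0.21, not called, and 1.38. Of the MORC relatives, *Morc3* had −0.32 and 0.45 and *Morc4* 1.06 and 1.46. *Morc2b* rose by 3.06 in Hp1-TKO cells from at most 0.240 CPM in WT-A, and was too low to be tested in *Setdb1*-null cells. The values of Hp1-TKO cells in this paragraph and the one before are against WT-A. Against *Hp1α/β*-null ESCs, *Hira*, *Morc3* and *Senp7* were called higher instead, at 0.12, 0.26 and 0.63. *Morc4* was not called there, at −0.22, and *Resf1* had 1.14. The remaining genes given with values kept their direction and their call or lack of it.

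The order of the conditions differed from gene to gene. Between the 10 pairs of neighbours in that order, libraries overlapped in 4 for *Trim28*, 5 for *Atf7ip*, 9 for *Mphosph8*, 6 for *Pphln1*, 7 for *Morc2a*, 6 for *Atrx* and 8 for *Daxx*. In *Mphosph8* only *Setdb1*-null cells stood apart from the next group. In *Atf7ip*, *Setdb1*-null cells, Hp1-TKO cells, *Hp1β/γ*-null ESCs and *Hp1γ*-null ESCs were each apart from the next lower group, and *Setdb1* F/F ESCs lay apart below all other group means. As a description over the 11 group means of log2(CPM + 1), the genes with the most similar pattern among 13558 were *2410002F23Rik* (Pearson's r = 0.986) and *Toe1* (0.960) for *Trim28*, *Rit1* (0.940) and *Gimap9* (0.925) for *Atf7ip*, *Gm30363* (0.984) and *Akr1c21* (0.979) for *Mphosph8*, *Inpp5e* (0.962) and *Ryk* (0.916) for *Pphln1*, *Myef2* (0.870) and *Tm9sf4* (0.869) for *Morc2a*, *Arhgef18* (0.890) and *Gng7* (0.888) for *Atrx*, and *Lrrc49* (0.942) and *Kifbp* (0.941) for *Daxx*. Genes with a symbol and a group mean of at least 5 CPM entered. Among the 7 genes themselves the highest correlation over the same 11 means was 0.72, between *Atf7ip* and *Daxx*, and the lowest −0.47, between *Atf7ip* and *Atrx*. All these values share the 33 libraries and their depth.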

How the data were processed

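The data comprise RNA-seq of 33 mouse ESC libraries. Total RNA was made into libraries with a TruSeq kit, named as an RNA kit in the labels and as a stranded one in the methods, and sequenced in paired ends. Per the submitters' processing notes, TopHat2 2.1.1, RSEM and edgeR were used with GRCm38.p5, and the methods name DESeq2 for the fold changes. The annotation release is not given in the sources used here. The authors deposited 8 tables, 1 for each mutant with its control, and the expected counts (RSEM's estimated counts per gene, not normalized) in them were rounded to whole numbers here, since 11.2% to 15.5% of values in a library were not whole. The TPM values deposited by the authors were used for levels per length and for ratios within a library. The tables also hold fold changes and adjusted p-values of the authors' own comparisons, which were not used. Control columns repeated between tables were identical.

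The 7 genes and the lists of other genes were chosen with earlier results of these data known. Each comparison was fitted on its 6 libraries in edgeR 4.0.16 (R 4.3.3, limma 3.58.1), with filterByExpr at a minimum count of 10, TMM, estimateDisp, glmQLFit and glmQLFTest, and p-values were adjusted by Benjamini-Hochberg over all genes tested. Genes were called at an adjusted p under 0.05, and with 2-fold at an absolute log2 fold change over 1. The effects of the losses of HP1 and SETDB1 were compared in a fit of 12 libraries. The steps were tested on simulated data. The genes named are the 7 members, *Cbx1*, *Cbx3*, *Cbx5* and *Setdb1* as checks, 6 further pathway genes, other pathway genes past 2-fold in Hp1-TKO or *Setdb1*-null cells, and 2 genes of most similar pattern for each member. *Gm16973* and *Tug1*, which overlap a member, were added after their values were seen. Marker lists were fixed by name. Total counts of 17330936 to 25743149 per library limit the precision of genes with few counts. Alternatives were RLE size factors, DESeq2 1.42.0, other filters, a joint fit, the other wild-type set as control, a replicate block, and each library left out. Positions and overlaps come from GENCODE M21 (55141 of 55487 genes matched) and promoters from RefSeq. No sequence of a protein was used here.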

Additional observations from a re-analysis of the deposited data

Results flagged for a closer look

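The effect of losing HP1 differed from that of losing SETDB1 in each of the 7 genes, by the test of the difference itself (edgeR's quasi-likelihood test over 12 libraries, Benjamini-Hochberg adjusted over 18569 genes). The effect in Hp1-TKO cells minus that in *Setdb1*-null cells was −1.33 for *Trim28* (adjusted p = 9.16e-21), −0.81 for *Atf7ip* (2.9e-14), −1.25 for *Mphosph8* (1.63e-14), −1.57 for *Pphln1* (4.77e-16), −0.64 for *Morc2a* (2.4e-12), −1.22 for *Atrx* (1.36e-16) and −0.25 for *Daxx* (0.00103). Such differences were called for 64.9% of all genes. WT-A was the only control of Hp1-TKO cells used in this test.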

How the results depend on the processing

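The 77 values of the 7 genes in *Setdb1*-null cells and the 112 values of the difference between the losses kept their direction and their side of the threshold under all alternatives run. For the difference, these did not include another control of Hp1-TKO cells, a joint fit or the filter of at least 1 count. Its dependence on the control was thus not tested. Against WT-B, *Daxx* had 0.49 in Hp1-TKO cells, nearer to its 0.60 in *Setdb1*-null cells. With WT-B in place of WT-A, the number of genes called in *Hp1α/β*-null ESCs was 3 in place of 5 (45.7% of all genes, in place of 43.4%) and the number past 2-fold in Hp1-TKO cells was 1 in place of 2, and the direction turned for *Morc2a* in *Hp1α*-null (0.10) and *Hp1γ*-null ESCs (0.16) and in Hp1-TKO cells (0.13) and for *Trim28* in *Hp1α/β*-null ESCs (0.0162). With WT-A in place of WT-B, *Hp1β/γ*-null ESCs had 6 genes called in place of 3 (62.0% of all genes, in place of 51.7%) and *Morc2a* turned to −0.12. A joint fit gave 1 for *Hp1β/γ*-null (24.1% of all genes) and 2 for *Hp1α/γ*-null ESCs (54.3%), and at least 10 counts in every library gave 2 for the latter (44.4%) and turned *Morc2a* in Hp1-TKO cells to 0.0245. The causes were not tested. The small calls of *Morc2a* in *Hp1α*-null ESCs (−0.09 when any of 4 libraries was left out, replicates 2 and 3 of either group) and of *Trim28* in *Hp1α/β*-null ESCs (−0.07 to −0.08 without any 1 library of WT-A) were lost with fewer libraries. Leaving out 1 library gave 0 to 6 genes called in *Hp1α/γ*-null ESCs, 6 without its replicate 2 (67.1% of all genes, in place of 46.5%) and 0 without replicate 1 or 3 of WT-B (32.4% and 30.2%), and *Morc2a* there ran from −0.10 to 0.14, the latter without its replicate 2. The replicate numbers of the labels did not pair libraries, since libraries with the same number had correlations of −0.05 to 0.07, and with a replicate block 1 more gene was called in *Hp1β*-null ESCs (*Atrx*, 4 in place of 3) and no other count over the 7 genes changed. Over all genes the block gave 7119 higher and 6873 lower in Hp1-TKO cells, where 7296 and 6987 were called without it. Over all values of single genes, those named here included, 938 kept their call, 19 lost and 20 gained one, and 7 turned in direction. Values called under neither setting count as kept even where their sign changed, and such changes are not listed above. With WT-B as the control, *Atrx* in *Hp1β*-null ESCs went from −0.25 to 0.11 in this way. With 3 libraries against 3 an exact permutation test cannot go below p = 0.1.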
